A study of Mus musculus with 6 samples.

Results

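The 10 genes described here belong to the ATF4 branch of the integrated stress response and to the unfolded protein response of the endoplasmic reticulum (ER). They were listed by symbol (*Atf4*, *Ddit3*, *Asns*, *Trib3*, *Chac1*, *Psat1*, *Phgdh*, *Fgf21*, *Ern1* and *Xbp1*), and all 10 were found among the 14548 genes measured. RNA-seq was performed on C2C12, a myoblast line from mouse. Myoblasts are the cells that form skeletal muscle fibres. The data comprise 3 libraries of wild-type (WT) cells and 3 of the MSTN-KO line C11, both grown in DMEM with fetal bovine serum. In C11, Cas9 and an sgRNA against an exon of *Mstn* had been introduced by electroporation. *Mstn* encodes myostatin, a secreted inhibitor of muscle growth. C11 is a single edited line, so the loss of *Mstn* and any other feature of that line cannot be told apart. C11 is also the strain named for WT in the labels, and the groups were taken from the sample titles. The expression values are FPKM, fragments on a gene divided by its length and by the size of its library, so levels can be compared between genes of a library. Between libraries they also depend on how the rest of the library's FPKM is spread. The effect of other scalings is given where it changes a call of the 10 genes, and for part of the genes around them.

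The integrated stress response starts from kinases that phosphorylate the translation factor eIF2α, among them PERK (*Eif2ak3*) in the ER membrane and GCN2 (*Eif2ak4*), which senses a shortage of amino acids. Phosphorylated eIF2α slows general translation but favours translation of the *Atf4* mRNA, and the ATF4 protein then drives genes for amino acid supply and for the later stress response. The unfolded protein response has a further pair of branches, in which IRE1 (*Ern1*) splices the *Xbp1* mRNA and ATF6 is cut to release a transcription factor, and both raise ER chaperones. Because ATF4 is controlled mainly in translation and XBP1 by splicing, the RNA level of either gene is not a measure of the activity of its protein.

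ATF4 binds together with C/EBP proteins to a composite element with the core TGATGNAA, and its longer form TGATGNAAT holds the core within it. Promoter windows from 250 bases before to 50 after each start site, taken from RefSeq on GRCm38.p6, were searched on both strands, and every one of the 10 genes had at least 1 window. The core was present in 4 of the 10 genes, against 4.51% of all 27025 genes with a window. The longer form was found in *Fgf21*, and 1.08% of all genes carried it. The matches are shown with the bases around them because they are the feature that these 4 genes share in sequence. Capitals mark the match, and each window is written 5′ to 3′ on the strand of its gene.

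Asns: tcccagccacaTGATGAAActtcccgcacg
Chac1: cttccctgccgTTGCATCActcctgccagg
Fgf21: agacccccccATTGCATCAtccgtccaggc
Trib3: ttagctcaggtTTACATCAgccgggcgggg

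The *Asns* window is chr6:7693214-7693243, where the match reads in the direction of the gene and ends 16 bases before the RefSeq start. The start of *Asns* in the GENCODE M21 annotation lies 45 bases further upstream, which puts this match 22 to 29 bases after it. The *Chac1* window is chr2:119351038-119351067, with the match read on the other strand and ending 186 bases before the start. The *Fgf21* window is chr7:45615611-45615640, again with the match on the other strand, ending 132 bases before the start. The *Trib3* window is chr2:152344028-152344057, where the match lies on the other strand from 14 to 21 bases after the RefSeq start. In GENCODE M21 the start of *Trib3* lies 28 bases further downstream, which puts the same match before it. The ER stress response element, bound by ATF6 with NF-Y, and the UPR element TGACGTGG were each present in 0 of the 10 genes, and in 0.137% and 0.714% of all genes. These are matches of letters in a window and were not tested as binding sites. In the comparison of MSTN-KO with WT, *Fgf21* was lower and *Asns*, *Chac1* and *Trib3* did not pass the test.

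The FPKM values summed to between 723705 and 764524 in the WT libraries and to between 856314 and 999579 in MSTN-KO. How many fragments each library held is unknown. From the smallest steps between low values, the depth relative to WT replicate 1 lay between 0.844 and 1.12, a rough estimate that rests on a peak of 15 to 17 genes in each library. *Mstn* was at or below 0.0586 FPKM in all 6 libraries, so its RNA gave no check of the labels. Of 7 myoblast markers listed, 6 were measured and all 6 were expressed in both groups, with *Pax7* higher and 4 lower in MSTN-KO at a limma adjusted p under 0.05. *Myod1* ranged from 126 to 167 FPKM in WT and from 90.8 to 104 FPKM in MSTN-KO. *Pecam1*, *Cdh5* and *Krt8*, markers of endothelium and epithelium, were at most 0.238 FPKM, and *Cd68*, a macrophage marker, was between 0.702 and 2.39 FPKM. The labels number the libraries of each group from 1 to 3 without saying whether they came from separate cultures, so p-values measure only the spread between these libraries, which may be technical.

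Of the 10 genes, *Fgf21* fell in MSTN-KO and the other 9 did not pass the test. The test was limma on log2(FPKM + 1) over the 10837 genes that reached 1 FPKM in any library, with Benjamini-Hochberg adjustment over all of them, and all 10 genes passed this filter. *Fgf21* passed it through WT alone, since its MSTN-KO values were at most 0.503 FPKM. With no filter it was still called lower (limma adjusted p = 0.0203). At an adjusted p under 0.05, 1 of the 10 was lower and 0 were higher in MSTN-KO, and the unadjusted p gave the same counts. Over all 10837 tested genes, 8.96% were lower and 8.78% higher at the adjusted p. At the unadjusted p, 1760 of them were lower and 1771 higher. With the thresholds in the study's methods, a log2 fold change below -1 at an unadjusted p under 0.05, *Fgf21* was again the 1 gene called lower, against 2.3% of all tested genes. The MSTN-KO and WT values did not overlap for 1 of the 10 genes, against 37.4% of all tested genes. The median log2 fold change of the 10 genes was -0.02, with 3 above 0 and 7 below, and that of all tested genes was -0.00.

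**Figure D1:**
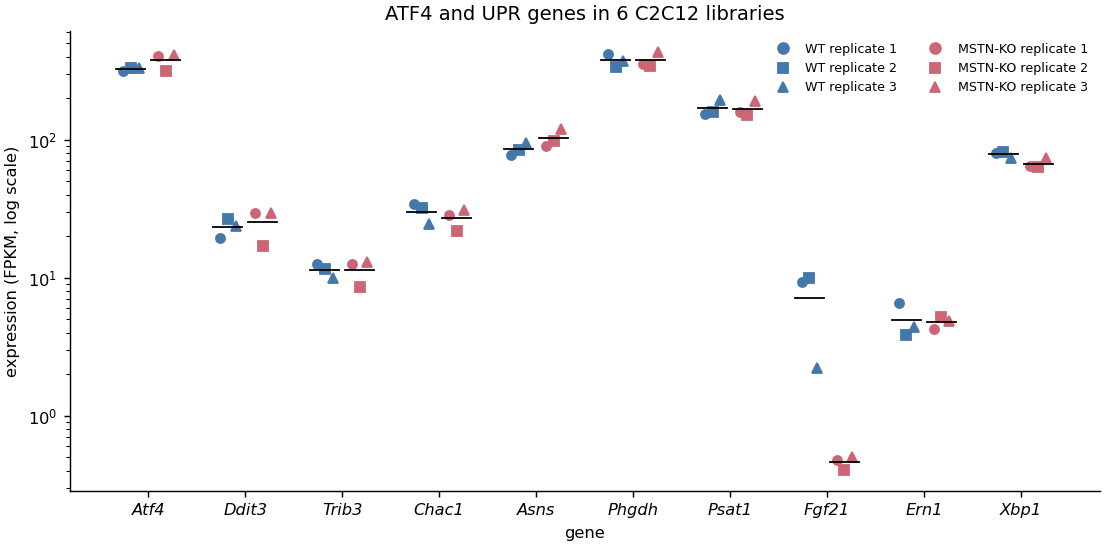
FPKM of the 10 genes on a log axis, with 1 point per library for WT and MSTN-KO. The groups overlap for every gene except *Fgf21*, which lies between 2.20 and 9.99 FPKM in WT and between 0.404 and 0.503 FPKM in MSTN-KO.

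*Atf4* (ENSMUSG00000042406, chr15:80255184-80257541 in the GENCODE M21 annotation of GRCm38) encodes the transcription factor at the centre of the response. It was at 313, 334 and 333 FPKM in the WT libraries, given here and below in the order of replicates 1, 2 and 3, and at 404, 314 and 414 FPKM in those of MSTN-KO. MSTN-KO replicates 1 and 3 lay above all WT libraries, while MSTN-KO replicate 2 lay within the WT range. The log2 fold change was 0.20, with a 95% interval from -0.09 to 0.49 and a limma adjusted p of 0.332. Without MSTN-KO replicate 2 it was 0.32 (limma adjusted p = 0.0859). The spread within the MSTN-KO group, a coefficient of variation of 14.5%, was wider than the 3.65% of WT.

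*Ddit3* (ENSMUSG00000025408, chr10:127290774-127296288) encodes CHOP, a transcription factor of the late, death-promoting phase. Its WT values were 19.3, 26.8 and 23.8 FPKM and its MSTN-KO values 29.5, 16.9 and 29.4 FPKM. MSTN-KO held both the highest and the lowest library, and the log2 fold change was 0.08 (interval -0.35 to 0.51, limma adjusted p = 0.803). *Trib3* (ENSMUSG00000032715, chr2:152337422-152344032), a pseudokinase induced by ATF4 and CHOP that feeds back on them, was at 12.6, 11.6 and 9.91 FPKM in WT and at 12.6, 8.53 and 12.9 FPKM in MSTN-KO. Its log2 fold change of -0.02 had an interval from -0.39 to 0.35 (limma adjusted p = 0.953). *Chac1* (ENSMUSG00000027313, chr2:119351229-119354381), an enzyme that degrades glutathione, was at 34.0, 31.8 and 24.6 FPKM in WT and at 28.3, 21.7 and 31.0 FPKM in MSTN-KO. The groups overlapped here too, at a log2 fold change of -0.15 (interval -0.51 to 0.20, limma adjusted p = 0.543). For *Ddit3*, *Trib3* and *Chac1* alike, the lowest of the 6 libraries was MSTN-KO replicate 2.

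*Asns*, *Phgdh* and *Psat1* are the enzymes of amino acid synthesis in the set, and none of them passed the test. *Asns* (ENSMUSG00000029752, chr6:7675169-7693254), which makes asparagine, was at 78.2, 84.9 and 94.2 FPKM in WT and at 89.9, 97.9 and 120.3 FPKM in MSTN-KO. Its log2 fold change of 0.25 was the highest of the 10 genes, but the interval ran from -0.05 to 0.55 (limma adjusted p = 0.226). *Phgdh* (ENSMUSG00000053398, chr3:98313170-98339990), the first enzyme of serine synthesis, was at 420.2, 335 and 374 FPKM in WT and at 353, 342 and 432 FPKM in MSTN-KO. *Psat1* (ENSMUSG00000024640, chr19:15904678-15947337), which acts after it in the same route, was at 154.9, 159.7 and 194 FPKM in WT and at 159.7, 152 and 190.4 FPKM in MSTN-KO. Both serine enzymes overlapped between the groups over most of their range. Their log2 fold changes were -0.01 (interval -0.31 to 0.29, limma adjusted p = 0.982) for *Phgdh* and -0.02 (interval -0.31 to 0.28, limma adjusted p = 0.942) for *Psat1*. When the FPKM of a library were brought to a sum of 1000000, the median of all genes fell by 0.26 on the log2 scale. *Phgdh* was then called lower (limma adjusted p = 0.0462), although it lay at -0.036 relative to that median.

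**Figure D2:**
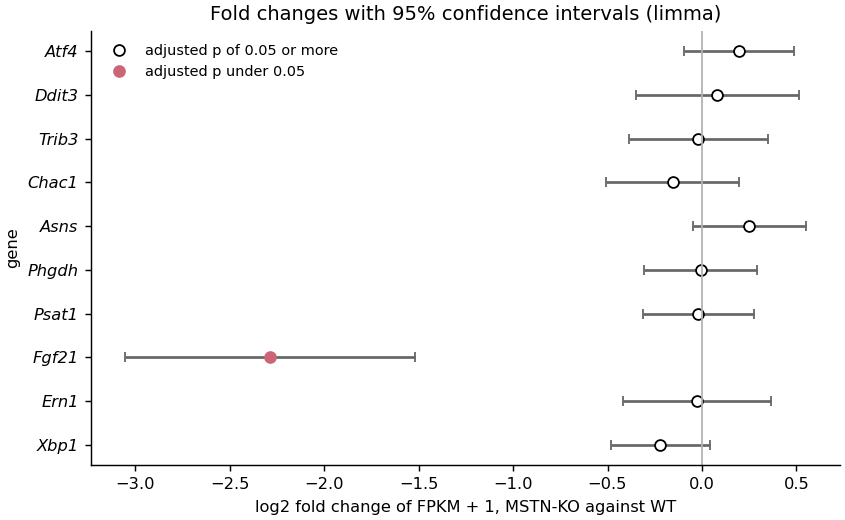
Log2 fold change of MSTN-KO against WT on the log2(FPKM + 1) scale for the 10 genes, with 95% intervals from limma. The interval of *Fgf21* runs from -3.05 to -1.52, and those of the other 9 genes include 0.

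*Fgf21* (ENSMUSG00000030827, chr7:45613886-45615490) encodes a secreted hormone of energy metabolism that ATF4 induces in muscle under mitochondrial or ER stress. It was at 9.30, 9.99 and 2.20 FPKM in WT and at 0.476, 0.404 and 0.503 FPKM in MSTN-KO. All MSTN-KO libraries were low and close together, while WT replicate 3 lay well below the other WT libraries and still above every MSTN-KO library. The group means were 7.16 ± 4.31 FPKM (SD, n = 3) in WT and 0.461 ± 0.0511 FPKM (SD, n = 3) in MSTN-KO, a level 15.5-fold higher in WT. On the log2 scale the fold change was -2.29 ± 0.36 (standard error), with a limma adjusted p of 0.000868. This scale understates the change of a gene at such low FPKM, and with a pseudocount of 0.1 in place of 1 the value was -3.43. The 2.20 FPKM of WT replicate 3 was 4.77 times the MSTN-KO mean, and the mean of WT replicates 1 and 2 was 20.9 times that mean. In bulk RNA, fewer expressing cells and less RNA per cell cannot be told apart.

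The WT libraries were uneven in the same way for genes of muscle differentiation. Of 10 such genes, all 10 were lower in MSTN-KO at a limma adjusted p under 0.05, with a median log2 fold change of -2.69. Among them *Myh3*, *Ckm* and *Cdkn1c* passed the filter of 1 FPKM through WT alone. The value of WT replicate 3 divided by the mean of WT replicates 1 and 2 was 0.228 for *Fgf21*. Over the 10 muscle genes the same ratio ranged from 0.140 to 1.15 with a median of 0.287. For *Myog*, the transcription factor myogenin that drives terminal differentiation, it was 0.293. For the cardiac troponin T gene *Tnnt2* and the cell cycle inhibitor *Cdkn1c* it was 0.973 and 1.15. The other 9 ATF4 and unfolded protein response genes had ratios between 0.747 and 1.23. The part of differentiation in the *Fgf21* result was not tested.

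**Figure D3:**
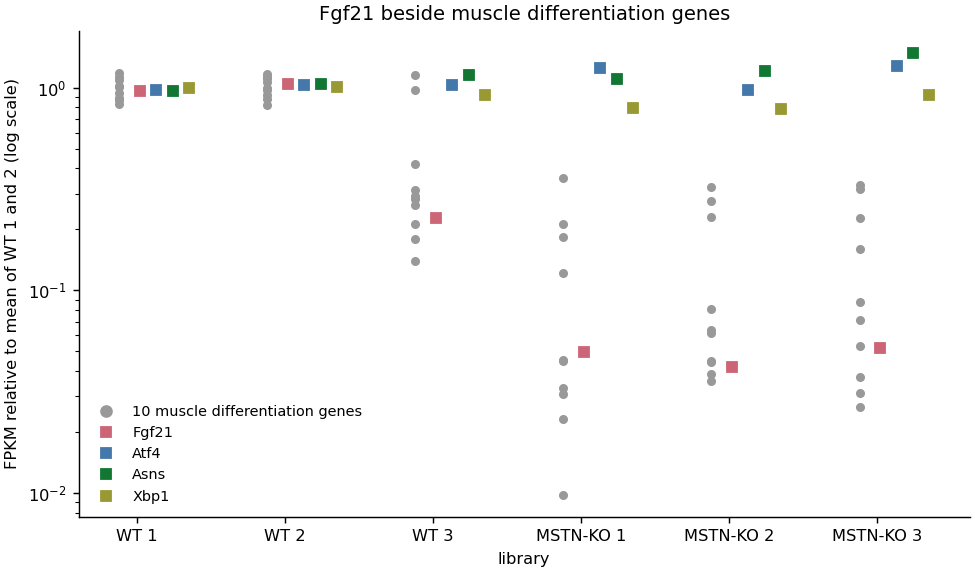
FPKM in each library divided by the mean of WT replicates 1 and 2, on a log axis, for *Fgf21*, *Atf4*, *Asns*, *Xbp1* and the 10 muscle differentiation genes. *Fgf21* stands at 0.228 in WT replicate 3, near the muscle gene median of 0.287. *Atf4*, *Asns* and *Xbp1* stand at 1.03, 1.16 and 0.916 there.

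*Ern1* (ENSMUSG00000020715, chr11:106394650-106487852) encodes IRE1α, the ER sensor that splices *Xbp1*. It was at 6.58, 3.86 and 4.42 FPKM in WT and at 4.23, 5.20 and 4.85 FPKM in MSTN-KO. All MSTN-KO values lay inside the WT range, and the log2 fold change was -0.03 (interval -0.42 to 0.37, limma adjusted p = 0.939). *Xbp1* (ENSMUSG00000020484, chr11:5520659-5525893), which encodes the transcription factor made from the spliced mRNA, was at 80.3, 80.9 and 73.9 FPKM in WT and at 64.2, 63.3 and 74.0 FPKM in MSTN-KO. The groups overlapped by a narrow margin, since MSTN-KO replicate 3 reached the level of WT replicate 3. The log2 fold change of *Xbp1* was -0.22, with an interval from -0.48 to 0.04 and a limma adjusted p of 0.224. *Xbp1* was called lower with quantile normalization (log2 fold change -0.33, limma adjusted p = 0.0309) and with a correction for gene length and GC content (-0.32, limma adjusted p = 0.0145). It was also called lower with the sum scaling (limma adjusted p = 0.00521), at -0.25 relative to the median of all genes. The FPKM of a whole gene does not separate spliced from unspliced *Xbp1*.

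By mean FPKM over the 6 libraries the genes ran from *Phgdh* (376 FPKM) and *Atf4* (352 FPKM) through *Psat1* (169 FPKM), *Asns* (94.2 FPKM) and *Xbp1* (72.8 FPKM) to *Chac1* (28.6 FPKM), *Ddit3* (24.3 FPKM), *Trib3* (11.4 FPKM), *Ern1* (4.86 FPKM) and *Fgf21* (3.81 FPKM). *Phgdh* and *Atf4* were above 97.2% and 97.0% of the tested genes, and *Fgf21* was above 22.4%. Over the 6 libraries, the ranges of the neighbours *Phgdh* and *Atf4*, *Asns* and *Xbp1*, *Chac1* and *Ddit3*, and *Ern1* and *Fgf21* overlapped, and *Fgf21* in WT also reached the range of *Trib3*. In WT replicate 1, *Xbp1* (80.3 FPKM) was above *Asns* (78.2 FPKM). *Fgf21* was above *Ern1* in WT replicates 1 and 2, whereas in MSTN-KO every library had more *Ern1*.

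The genes of the set differed among the MSTN-KO libraries. Replicate 2 was the lowest of the MSTN-KO libraries for 8 of the 10 genes, all except *Asns* and *Ern1*, and replicate 3 was the highest for 8 of the 10. Over all tested genes these libraries were lowest and highest for 39.2% and 43.9%. The summed FPKM of MSTN-KO was also lowest in replicate 2 (856314) and highest in replicate 3 (999579). The part of these totals in the deviations was not tested. The median deviation from the MSTN-KO mean on the log2 scale was -0.02, -0.13 and 0.19 for replicates 1, 2 and 3 over the 10 genes, against 0.00, -0.02 and 0.03 over all tested genes. Among the MSTN-KO libraries *Ddit3* had the widest deviation, at -0.51 in MSTN-KO replicate 2, followed by *Trib3* at -0.35, *Chac1* at -0.29 and *Atf4* at -0.25. Of 20 other ATF4 target genes, 12 were lowest in MSTN-KO replicate 2 and 14 were highest in MSTN-KO replicate 3. In WT, 15 of these 20 genes were highest in replicate 1 and 14 lowest in replicate 2, against 47.0% and 30.5% of all tested genes. Their median deviations were 0.08, -0.08 and -0.01 in WT replicates 1, 2 and 3. In MSTN-KO replicates 1, 2 and 3 they were -0.04, -0.13 and 0.15. The summed FPKM of WT was lowest in replicate 2 (723705), but highest in replicate 3 (764524). Of the 10 genes of the set, 4, 2 and 4 were lowest in WT replicates 1, 2 and 3, and the widest deviation in WT was that of *Fgf21*, at -1.16 in replicate 3. The genes were measured in the same libraries, so the counts describe 3 libraries and not 10 separate cases.

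**Figure D4:**
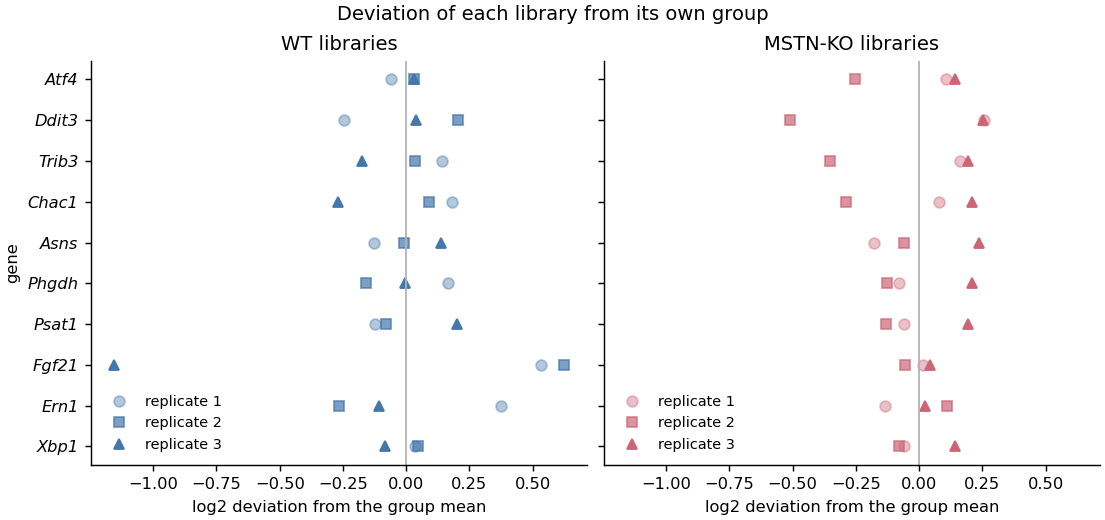
Deviation of each library from its own group mean on the log2(FPKM + 1) scale, for the 10 genes. MSTN-KO replicate 2 is the lowest MSTN-KO library for 8 of the 10 genes, and *Ddit3* reaches -0.51 there.

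Genes around the set were listed by their role and read from the same limma test. Of 121 tested genes in 9 lists, 14 were higher and 8 lower in MSTN-KO at an adjusted p under 0.05, with a median log2 fold change of 0.09, and 52 of the 121 did not overlap between the groups. These are 11.6% higher, 6.61% lower and 43.0% without overlap, near the 8.78%, 8.96% and 37.4% of all tested genes. The sum scaling gave 3 higher and 26 lower of the 121 (2.48% and 21.5%), near the 3.23% and 21.8% of all tested genes under that scaling. Of the 14 higher and 8 lower genes, *Ddit4*, *Cth*, *Sdf2l1*, *Dnajb11* and *Ero1lb* kept their call in all 16 alternatives, and 17 lost it in at least 1, of which 16 lost it without WT replicate 2. Without that library the calls over all tested genes also fell, from 1923 to 1030. Among 7 genes for eIF2α, its kinases and its phosphatase subunits, *Ppp1r15a* rose from 14.5 ± 2.85 to 24.1 ± 3.49 FPKM (SD, n = 3, log2 fold change 0.70, limma adjusted p = 0.0113). It encodes GADD34, which reverses the phosphorylation of eIF2α. *Eif2ak3*, which encodes PERK, was at 5.45 ± 0.707 FPKM in WT and 4.90 ± 0.154 FPKM in MSTN-KO (limma adjusted p = 0.60). *Eif2ak4*, which encodes GCN2, was at 3.74 ± 0.258 FPKM in WT and 5.25 ± 1.18 FPKM in MSTN-KO without overlap (limma adjusted p = 0.132). It was called higher with quantile normalization (limma adjusted p = 0.0454). Among 8 partner factors, *Cebpb*, which can form dimers with ATF4, was called higher at 62.5, 39.98 and 31.7 FPKM in WT and 96.3, 55.0 and 127 FPKM in MSTN-KO (log2 fold change 1.01, limma adjusted p = 0.0226). Its groups overlapped, since MSTN-KO replicate 2 lay below WT replicate 1. *Atf3*, a factor that ATF4 induces, was at 12.03 ± 0.679 and 11.4 ± 0.327 FPKM (limma adjusted p = 0.743).

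The ATF4 target list had 20 tested genes, of which 5 rose (25%), 1 fell (5%) and 14 did not pass the test, against 8.78% and 8.96% of all tested genes, with a median log2 fold change of 0.27. With the sum scaling the median was -0.0065, which is 0.25 above that of all genes, and 2 were higher (10%) and 4 lower (20%), against 3.23% and 21.8% of all tested genes. *Ddit4*, an inhibitor of mTORC1, was at 48.1, 40.8 and 44.2 FPKM in WT and at 84.8, 68.7 and 74.1 FPKM in MSTN-KO (log2 fold change 0.76, limma adjusted p = 0.00163). *Cth*, which makes cysteine from cystathionine, rose from 2.63 ± 0.619 to 5.23 ± 0.568 FPKM (log2 fold change 0.79, limma adjusted p = 0.00656). *Aldh18a1*, of proline synthesis, and *Sesn2*, a leucine sensor, rose by 0.44 and 0.46 on the log2 scale (limma adjusted p = 0.0296 and 0.0454). *Gdf15*, which encodes a stress hormone and was picked for mention after its values were seen, rose from 72.3 ± 8.10 to 103 ± 20.1 FPKM (limma adjusted p = 0.0434). *Slc7a1*, a transporter of cationic amino acids, fell by 0.50 on the log2 scale (limma adjusted p = 0.0309). The core element was present in 7 of the 18 listed targets that had a promoter window, namely *Vldlr*, *Slc7a11*, *Slc1a4*, *Pck2*, *Herpud1*, *Pycr1* and *Jdp2*. Of these, *Vldlr* missed the filter and the rest were not called. The called genes *Ddit4*, *Cth*, *Aldh18a1*, *Sesn2*, *Gdf15* and *Slc7a1* were not among the carriers. The list held 23 targets and only 18 had a window, so a called gene may have gone unsearched. Sequence outside the windows was not searched either.

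Of 9 genes for serine and one-carbon metabolism, 2 rose (22.2%, against 8.78% of all tested genes) and 0 fell, with a median log2 fold change of 0.23 (-0.043 with the sum scaling, with 0 called), and the unadjusted p also gave 0 lower. Both encode mitochondrial enzymes of the folate cycle. *Mthfd1l* rose from 30.5 ± 1.76 to 44.2 ± 4.91 FPKM (limma adjusted p = 0.0154) and *Aldh1l2* from 6.67 ± 0.532 to 11.02 ± 1.64 FPKM (limma adjusted p = 0.0119). *Psph*, which completes the serine route of *Phgdh* and *Psat1*, was at 42.5 ± 4.49 and 50.7 ± 8.47 FPKM (limma adjusted p = 0.262). *Shmt2* and *Mthfd2*, which come next in mitochondria, differed by 0.40 and 0.22 on the log2 scale (limma adjusted p = 0.0584 and 0.291). Of 20 tRNA synthetase genes, *Kars* and *Vars* rose by 0.57 and 0.56 on the log2 scale (limma adjusted p = 0.0126 and 0.0193), and 0 fell at the adjusted or the unadjusted p. These 2 are 10% of the list, near the 8.78% of all tested genes. At the unadjusted p, 7 of the 20 were higher, against 1771 of all 10837 tested genes. The median was 0.20. With the sum scaling it was -0.084, which is 0.17 above that of all genes, and 2 were called lower (10%, against 21.8% of all tested genes).

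**Figure D5:**
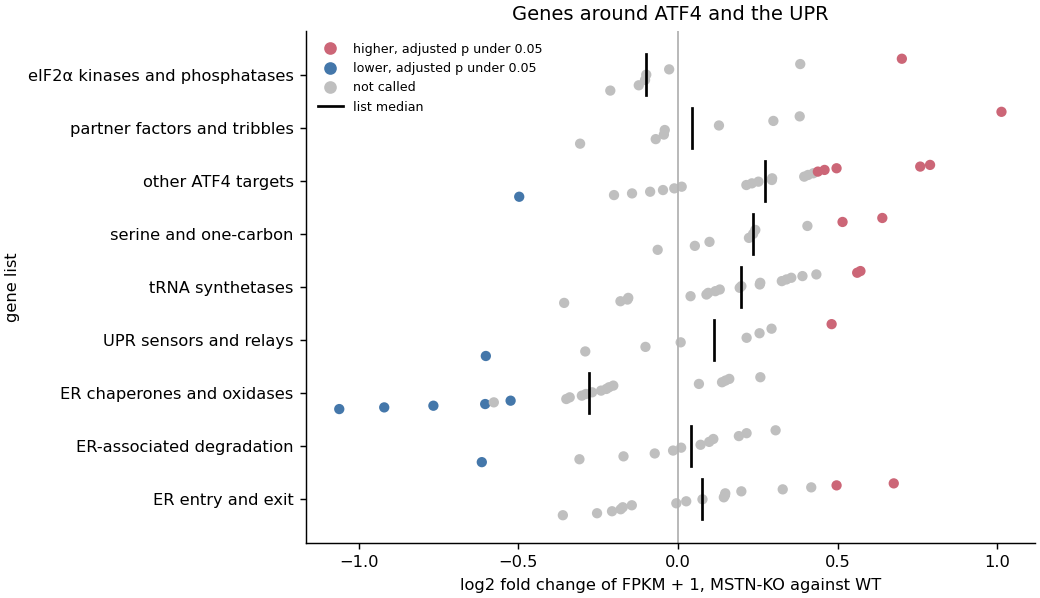
Log2 fold change of MSTN-KO against WT for the tested genes of the 9 surrounding lists, 1 point per gene, with genes past a limma adjusted p of 0.05 marked and the median of each list drawn as a line. The ER chaperones have the lowest median, -0.28, and the ATF4 targets the highest, 0.27.

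On the ER side, 5 of 20 chaperone and folding genes fell (25%, against 8.96% of all tested genes) and 0 rose, with a median log2 fold change of -0.28 and 15 of 20 below 0. At an unadjusted p under 0.05, 9 were lower and 0 higher, against 1760 lower and 1771 higher of all 10837 tested genes. Relative to the median of all genes, the list's median was -0.28 as deposited and -0.30 with the sum scaling. With that scaling 11 of the 20 were lower (55%, against 21.8% of all tested genes). With the length and GC correction 7 were lower (35%, against 12.1%). *Sdf2l1*, a cofactor of the chaperone BiP, was at 33.4, 28.7 and 31.9 FPKM in WT and at 15.7, 14.0 and 13.7 FPKM in MSTN-KO (log2 fold change -1.06, limma adjusted p = 0.000118). *Dnajb11*, another BiP cochaperone, fell from 51.5 ± 3.64 to 29.97 ± 3.47 FPKM (log2 fold change -0.77, limma adjusted p = 0.00168). *Ero1lb*, an ER oxidase, fell from 2.14 ± 0.241 to 0.659 ± 0.0943 FPKM (limma adjusted p = 0.00215). It passed the filter through WT alone, since all its MSTN-KO values were below 1 FPKM. *Dnajb9*, a BiP cochaperone that is itself a target of XBP1, fell by 0.60 on the log2 scale (limma adjusted p = 0.0165). *Dnajc3*, likewise picked after its values were seen, fell by 0.52 (limma adjusted p = 0.0380). The major chaperones did not pass the test in the main fit. *Hspa5*, which encodes BiP, was at 168 ± 31.0 FPKM in WT and 132 ± 13.9 FPKM in MSTN-KO (log2 fold change -0.34, limma adjusted p = 0.137). It was called lower with the sum scaling and without WT replicate 1. The length and GC correction plus the replicate block also called it lower. The smallest limma adjusted p of these was 0.0202.

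The remaining ER genes were called in both directions. *Atf6*, the third ER sensor, fell from 9.81 ± 1.09 to 6.14 ± 0.979 FPKM (limma adjusted p = 0.0182). Its paralog *Atf6b* rose from 26.9 ± 2.90 to 37.9 ± 2.45 FPKM (limma adjusted p = 0.0220), so that 1 of 8 sensor and transcription factor genes rose and 1 fell (12.5% each). Of 12 genes for degradation of ER proteins, *Edem3* fell by 0.61 on the log2 scale (limma adjusted p = 0.0401) and 0 rose. At an unadjusted p under 0.05, 1 was higher and 1 lower, against 1771 higher and 1760 lower of all 10837 tested genes. Of 17 genes for translocation and export, *Sec61b* and *Ssr4*, small subunits of the translocon, rose by 0.50 and 0.68 on the log2 scale (limma adjusted p = 0.0288 and 0.00697). The calls in these 3 lists, 1 of 8 in each direction, 1 of 12 lower and 2 of 17 higher, lie near the 8.78% higher and 8.96% lower of all tested genes. Some of the genes that fell lie on chromosomes whose tested genes were low as a whole in MSTN-KO, and some that rose on chromosomes that were high. The median log2 fold change was -0.25 over 627 genes of chromosome 1, which holds *Atf6* and *Edem3*. It was -0.34 over 410 genes of chromosome 13, which holds *Ero1lb*, and -0.29 over 367 genes of chromosome 14, which holds *Dnajc3*. Chromosome 17, which holds *Atf6b* and *Vars*, had a median of 0.15 over 527 genes, and chromosome 8, which holds *Kars* and *Gdf15*, had 0.12 over 562 genes. The part of the chromosomes in these results was not tested. *Sdf2l1* and *Dnajb11* lie on chromosome 16, with a median of -0.08, and *Fgf21* on chromosome 7, with a median of 0.10.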

How the data were processed

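The RNA-seq data cover C2C12 cells, with 3 libraries each of WT and MSTN-KO. The authors deposited gene-level FPKM values, 1 file per library. The submitters' processing notes name Bowtie 0.12.2 and mm8, without their role, and the counter, annotation and gene filter are not given in the sources used here. FPKM is relative to each library's total, so a few abundant genes lower all others. The miRNA libraries and the rhabdo group were not used here.

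Symbols and positions came from GENCODE M21 (GRCm38), which matched 14445 of 14548 identifiers (99.3%), and promoter windows from RefSeq. Values were taken as log2(FPKM + 1), filtered at 1 FPKM in at least 1 library and compared with limma 3.58.1 (R 4.3.3, eBayes with trend), with Benjamini-Hochberg adjustment and a threshold of 0.05. Intervals are 95% intervals from the same fit. The fit was tested on simulated data. Python 3.11.15 (pandas 2.3.3, numpy 2.4.6, matplotlib 3.10.9) served for the other steps.

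The genes and the lists around them were chosen with earlier results of these data known. Genes chosen for naming were the 10 of the set and the 4 with the smallest adjusted p in each list. A further 6 central to the pathway were added, and exceptions are stated. Not all of these genes are given with values in the text. Alternatives were a pseudocount of 0.1, other filters, no trend, quantile normalization, scaling to a sum of 1000000 or to the percentile 75, a length and GC correction with mgcv 1.9.3, a replicate block, and leaving out each library.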

Additional observations from a re-analysis of the deposited data

How the results depend on the processing

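*Fgf21* was called lower in all 16 alternatives, with a log2 fold change between -2.86 and -1.97 when single libraries were left out and a limma adjusted p of at most 0.0203. The count of genes of the set called lower rose from 1 to 2 with quantile normalization, with the length and GC correction and with that correction plus the replicate block, and to 3 (*Fgf21*, *Phgdh* and *Xbp1*) with scaling to a sum of 1000000. Over all genes, the correction plus the block called 2127 of 10784 in either direction. The share of all genes called lower was 8.96% in the main fit and 8.68% with quantile normalization. It was 12.1% with the length and GC correction and 21.8% with the sum scaling. That scaling lowered the median of all genes by 0.26 on the log2 scale and turned *Atf4* to -0.089, *Ddit3* to -0.19, *Asns* to -0.033, *Mthfd1* to -0.043, *Vcp* to -0.10, *Psph* to -0.039 and *Mthfd2* to -0.061, and relative to the shifted median *Atf4*, *Ddit3* and *Asns* stayed at 0.17, 0.060 and 0.22. Quantile normalization turned *Trib3* to 0.013 and *Ern1* to 0.086, and the length and GC correction turned *Ern1* to 0.035, with and without the block. Leaving out single libraries moved *Ddit3* between -0.046 and 0.34, *Trib3* between -0.11 and 0.16, *Psat1* between -0.11 and 0.083, *Phgdh* between -0.11 and 0.076, *Ern1* between -0.16 and 0.16 and *Eif2ak2* between -0.37 and 0.046. Of the surrounding genes, 14 higher and 8 lower became 9 and 4 without a filter and 3 and 26 with the sum scaling. Leaving out single libraries gave 3 to 19 higher and 3 to 8 lower, with 3 of each without WT replicate 2, 9 and 5 without WT replicate 3, 5 and 5 without MSTN-KO replicate 1, 7 and 4 without MSTN-KO replicate 3, and 5 lower without WT replicate 1. Calls over all genes moved too, from 1923 of 10837 to 1626 of 14548 without a filter and 2717 with the sum scaling. Without WT replicates 1, 2 and 3 they were 1420, 1030 and 1406. Without MSTN-KO replicates 1, 2 and 3 they were 1165, 2408 and 1312. *Ddit4*, *Cth*, *Sdf2l1*, *Dnajb11* and *Ero1lb* kept their call in all 16 alternatives, *Ssr4* in 15, *Ppp1r15a*, *Mthfd1l* and *Dnajb9* in 14, *Kars* and *Aldh1l2* in 13, *Atf6* in 12, *Vars* and *Atf6b* in 11, *Cebpb*, *Aldh18a1* and *Slc7a1* in 10, *Sesn2*, *Sec61b*, *Edem3* and *Dnajc3* in 7 and *Gdf15* in 6. Of these 17 genes, 16 lost their call without WT replicate 2, 12 without MSTN-KO replicate 1, 11 without MSTN-KO replicate 3, 8 without WT replicate 3, 7 without WT replicate 1, 2 without MSTN-KO replicate 2, and 11 with the sum scaling. Other surrounding genes gained a call. Among them, *Eif2ak4* was higher with quantile normalization, and *Yars* with that, the percentile 75 scaling and the length and GC correction. *Hspa5*, *Nupr1*, *Ppp1r15b*, *Creb3l1*, *Sel1l* and *Ssr1* were lower with the sum scaling. Same-numbered libraries of the groups deviated with correlations of -0.0153, -0.128 and -0.142 across genes, so the numbers were not taken to pair them. A replicate block gave 15 higher and 9 lower surrounding genes and the same counts for the set, with 1940 calls over all tested genes. Depth is unknown, so counting error could not be given. Apart from the sum scaling, whose shift is stated, the cause of these changes was not tested.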
